A study of Homo sapiens with 2 samples.

Results

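miR-21-5p, miR-221-3p and miR-222-3p, 3 microRNAs (miRNAs, listed as hsa-miR-21-5p, hsa-miR-221-3p and hsa-miR-222-3p) widely described as oncomirs in breast cancer, were followed in small extracellular vesicles (sEVs) released by 2 mammary cell lines. They were chosen by name, as 3 of the 1315 mature miRNAs counted. Small RNA sequencing had been run once for each line. The control line, MCF-10A, is non-tumorigenic mammary epithelium, and the cancer line, MDA-MB-231, stands for triple-negative breast tumours with mesenchymal features. Both lines are labelled wild type and epithelial, and no treatment separates them. In both, vesicles were spun down by ultracentrifugation from the medium of nearly confluent cells kept in vesicle-depleted medium. The labels describe the growth medium of MDA-MB-231 cells only. Each line gave 1 library, so none of the differences below has a replicate check, no p-value is given, and every interval compares these 2 libraries and covers counting error only.

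miRNAs guide Argonaute proteins to messenger RNAs by pairing of their seed, bases 2 to 8 from the 5′ end, and lower the output of the targets. miR-21-5p is among the most abundant miRNAs of many tumours and represses tumour suppressors such as PDCD4. miR-221-3p and miR-222-3p come from neighbouring hairpins on the X chromosome, share a seed and repress the cell cycle inhibitor p27, encoded by CDKN1B. Both are known for high levels in basal-like breast cancer cells and low levels in luminal, oestrogen receptor-positive ones.

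The mature sequences are shown because the seed decides which of the miRNAs could act on the same targets. They were taken from RefSeq (GRCh38.p14), which held all 3 members and 1 of the 3 opposite arms, and the seed is in capitals:
miR-21-5p: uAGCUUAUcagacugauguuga
miR-221-3p: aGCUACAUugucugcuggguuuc
miR-222-3p: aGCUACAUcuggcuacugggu
miR-222-5p: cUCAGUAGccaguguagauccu
miR-590-5p: gAGCUUAUucauaaaagugcag
Among the human mature miRNAs of RefSeq, miR-221-3p and miR-222-3p share their seed with each other alone. The seed of miR-21-5p recurs in miR-590-5p, whose level was not analysed here. The longest run that miR-221-3p and miR-222-3p share is their first 8 bases, and counted from the 5′ end 11 of 21 positions are identical. The pair is shown again with that shared run in capitals, because it bears on whether reads could be assigned to the wrong member:
miR-221-3p: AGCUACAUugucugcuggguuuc
miR-222-3p: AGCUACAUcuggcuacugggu
In GENCODE v29 no transcript of another gene holds 18 or more consecutive bases of miR-221-3p or of miR-222-3p. For miR-21-5p the only other gene with such a stretch is VMP1, which overlaps the hairpin.

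miR-21-5p is encoded on chromosome 17 (59841273 to 59841294, plus strand). Its hairpin MIR21 (59841266 to 59841337) lies inside VMP1, which encodes a membrane protein of autophagy, and falls in an exon of 1 of the 17 annotated VMP1 transcripts and in no annotated UTR. miR-221-3p (45746180 to 45746202) and miR-222-3p (45747036 to 45747056) are encoded on the minus strand of chromosome X. Their hairpins, MIR221 (45746157 to 45746266) and MIR222 (45747015 to 45747124), are 748 bases apart. Both lie within the span of the host long non-coding RNA MIR222HG, on the same strand, and overlap no exon of its 2 annotated transcripts.

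The MCF-10A library held 11529 counts and the MDA-MB-231 library 18397 counts. A single count therefore equalled 86.7 CPM (counts scaled to a library size of 1e+06) and 54.4 CPM. Of the miRNAs listed, 458 and 484 had at least 1 count. A count of 0 allows a share of up to 0.0260% and 0.0163%. Most counts belonged to miR-182-5p, with 46.6% and 51.0%, and to miR-451a, with 11.8% and 19.4%. As a check of the labels, the 7 epithelial miRNAs (the miR-200 family, miR-203a-3p and miR-205-5p) summed to 79 counts in the MCF-10A library and 21 counts in the MDA-MB-231 library. Most of the gap was miR-205-5p, a marker of basal epithelium, with 41 and 0 counts, and miR-200c-3p, with 19 and 3 counts. In the other direction, miR-200b-3p had 3 and 9 counts, miR-141-3p 0 and 2 counts and miR-429 1 and 2 counts.

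miR-21-5p was abundant in both libraries. It had 354 counts in the MCF-10A library, or 3.07% of the library (95% Wilson interval 2.77 to 3.40%), and ranked 4 of 458 detected miRNAs. In the MDA-MB-231 library it had 356 counts, or 1.94% (1.75 to 2.14%), and ranked 6 of 484. The 2 raw counts were thus nearly equal, while the second library was deeper, and the intervals of the shares did not overlap. In the MCF-10A library the interval of miR-21-5p was separate from those of its neighbours in rank, let-7f-5p above it (503 counts, 4.01 to 4.75%) and let-7i-5p below it (188 counts, 1.42 to 1.88%). In the MDA-MB-231 library it was separate from let-7g-5p below it (245 counts, 1.18 to 1.51%) but overlapped that of let-7f-5p above it (390 counts, 1.92 to 2.34%), so the order of these 2 was not resolved.

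miR-221-3p was a minor component. It had 12 counts in the MCF-10A library, or 0.104% of the library (0.0596 to 0.182%), and 11 counts in the MDA-MB-231 library, or 0.0598% (0.0334 to 0.107%). miR-222-3p had 8 counts in the MCF-10A library, or 0.0694% (0.0352 to 0.137%), and 7 counts in the MDA-MB-231 library, or 0.0380% (0.0184 to 0.0785%). Both members of the cluster were therefore detected in both libraries, above the share that a count of 0 allows, and for each of them the intervals of the 2 libraries overlapped. miR-221-3p ranked 76 in the MCF-10A library and 74 in the MDA-MB-231 library, and miR-222-3p ranked 95 and 94. These ranks are loose, since the interval of miR-221-3p alone spanned ranks 52 to 108 in the MCF-10A library and 50 to 99 in the MDA-MB-231 library.

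**Figure D1:**
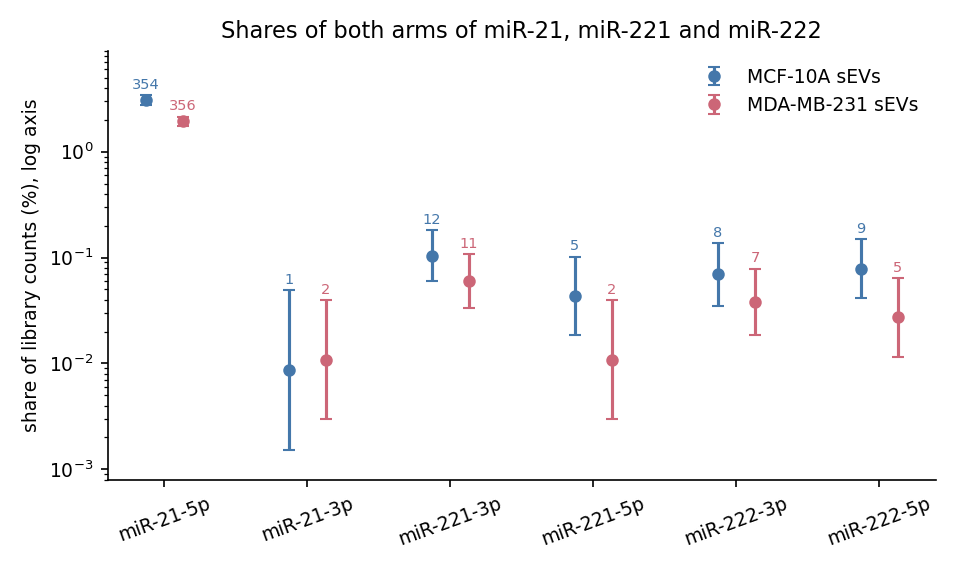
Share of library counts in percent (log axis) for both arms of miR-21, miR-221 and miR-222 in the MCF-10A library (blue) and MDA-MB-231 sEVs (red), with 95% Wilson intervals and the count above each bar. miR-21-5p lies far above the other 5 arms in both libraries, at 3.07% and 1.94%, and it is the only arm whose intervals do not overlap between the libraries.

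Together the 3 miRNAs had 374 counts in each library, which is 3.24% of the MCF-10A library (2.94 to 3.58%) and 2.03% of the MDA-MB-231 library (1.84 to 2.25%). Nearly all of this was miR-21-5p. It outnumbered miR-221-3p and miR-222-3p together 17.7-fold in the MCF-10A library (exact 95% interval 11.3 to 29.3) and 19.8-fold in the MDA-MB-231 library (12.3 to 33.8). The proportion between miR-21-5p and the pair in MDA-MB-231 sEVs divided by that in MCF-10A sEVs was 1.12, with an interval of 0.551 to 2.28 that includes no change. At this depth the counts do not separate no change from the other values within that interval.

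**Figure D2:**
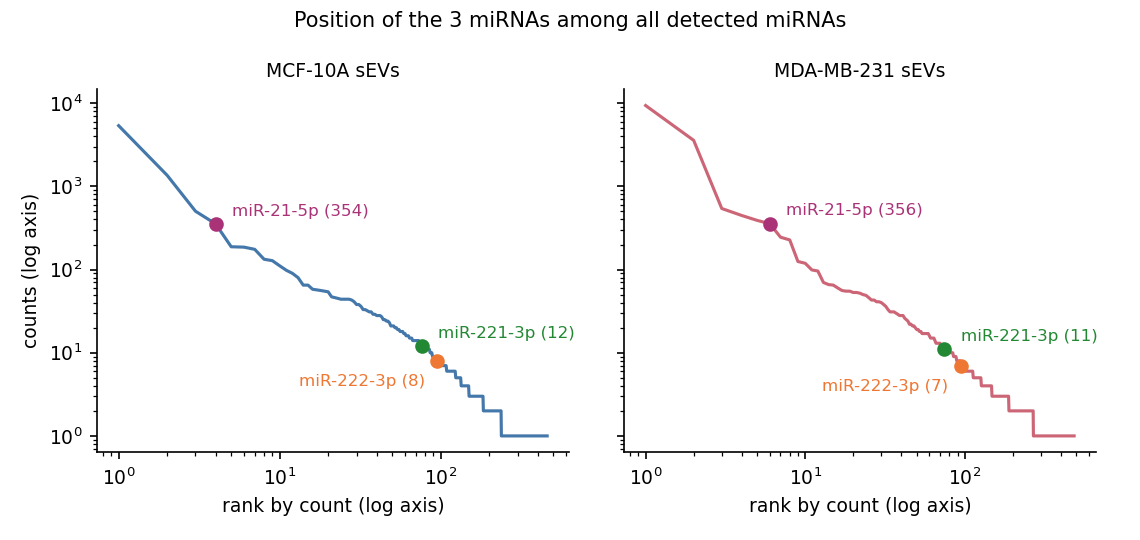
Counts (log axis) against rank by count (log axis) for every detected miRNA of the MCF-10A library (left) and MDA-MB-231 sEVs (right), with the 3 miRNAs marked and their counts in brackets. miR-21-5p sits at ranks 4 and 6, whereas miR-221-3p and miR-222-3p sit between ranks 74 and 95, where the curve begins to break into steps of single counts.

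Agreement between miR-221-3p and miR-222-3p was examined by their proportion within a library, which no scaling can alter. miR-221-3p exceeded miR-222-3p 1.5-fold in the MCF-10A library (12 against 8 counts, exact 95% interval 0.564 to 4.23) and 1.57-fold in the MDA-MB-231 library (11 against 7 counts, 0.556 to 4.78). The point estimates were close, and equal levels of the pair lay inside both intervals. The proportion in the MDA-MB-231 library divided by that in the MCF-10A library was 1.05 (exact conditional interval 0.236 to 4.70). The members of the cluster thus gave nearly the same ratio between libraries, but with so few counts a 4-fold difference between them in either direction also lay inside the interval.
The opposite arms were rarer still. miR-221-5p had 5 counts in the MCF-10A library and 2 counts in the MDA-MB-231 library, and miR-222-5p had 9 and 5 counts. The same quotient for these arms was 0.720, with an interval of 0.0513 to 6.97. With both arms of each hairpin added, miR-221 and miR-222 had 17 counts each in the MCF-10A library and 13 and 12 counts in the MDA-MB-231 library.

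The comparison of cancer and control vesicles was made as the ratio of shares, MDA-MB-231 over MCF-10A sEVs. For miR-21-5p it was 0.630 (exact conditional 95% interval 0.542 to 0.732), a share 1.59-fold lower in the MDA-MB-231 library. For miR-221-3p the ratio was 0.574 (0.230 to 1.42), and for miR-222-3p it was 0.548 (0.169 to 1.73). All 3 point estimates were below 1 and within a narrow range, and among these mature miRNAs an equal share lay outside the interval of miR-21-5p only. For the pair added together the ratio was 0.564 (0.281 to 1.12). With both arms of a hairpin added, the ratio was 0.479 for miR-221 (0.214 to 1.05) and 0.442 for miR-222 (0.193 to 0.983), so that an equal share then lay just outside the interval of miR-222 as well. With the library total as the scale, an increase of any size of miR-21-5p in the cancer vesicles lay outside its interval. So did an increase of miR-221-3p above 1.42-fold or of miR-222-3p above 1.73-fold. Under the other scalings given below these bounds differ.

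Most miRNAs had a ratio below 1 under scaling to the library total, and the members have to be read against that. For comparison across miRNAs the log2 ratio of CPM with a pseudocount of 1 CPM was taken for 109 miRNAs, those that reached 10 counts in at least 1 library. The median of these log2 ratios was −0.72, and 76 of the 109 were below 0. miR-21-5p had a log2 ratio of −0.67 and miR-221-3p one of −0.80, which differ from the median by 0.05 and −0.08. miR-222-3p, which missed the minimum of 10 counts, had a log2 ratio of −0.87. In the order of the 109 log2 ratios 58 were lower than that of miR-21-5p, 51 lower than that of miR-221-3p and 50 lower than that of miR-222-3p. All 3 therefore stood in the middle of the distribution. Neither of the 2 members that passed the minimum was 2-fold different in either direction, while 56.9% of all 109 miRNAs were (15.6% higher, 41.3% lower). Under each of 3 other scalings (the trimmed mean of M values or TMM, median of ratios and a total without the most abundant miRNAs), 22.0% were higher and 25.7% lower. Of the 109, 22 had 3 or fewer counts in 1 library, so that their ratios rest on very few counts. An interval of the ratio of shares wholly below 1, as found for miR-21-5p, was shared by 46.8% of the 109, and one wholly above 1 by 16.5%.

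**Figure D3:**
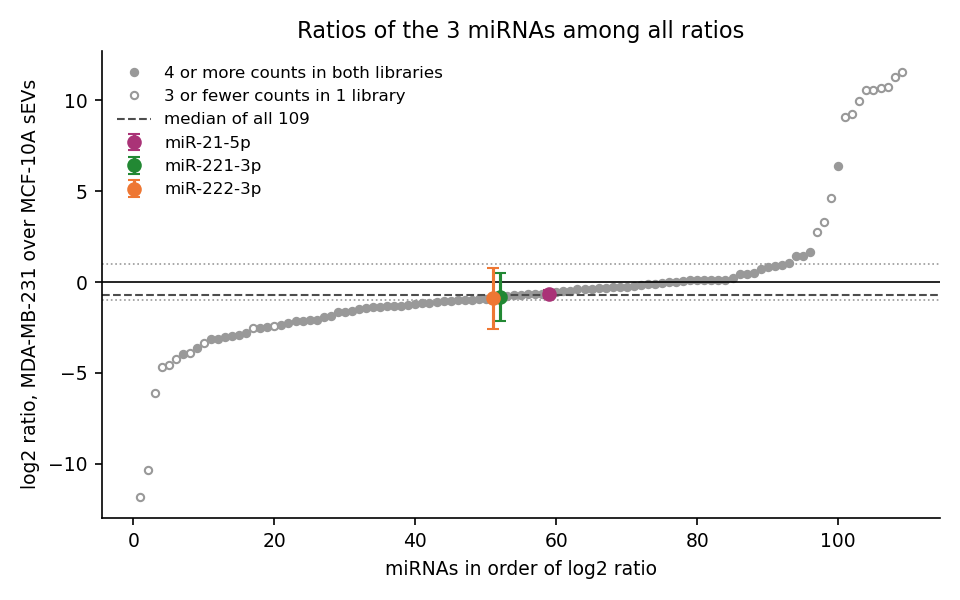
Log2 ratios of CPM (pseudocount 1 CPM), MDA-MB-231 over MCF-10A sEVs, of 109 miRNAs in rising order (grey). Points are open where 1 library had 3 or fewer counts, and the pseudocount sets the size only where a count was 0. The 3 named miRNAs carry 95% intervals and their log2 ratios of shares, the dashed line is the median of −0.72 and dotted lines mark 2-fold, and all 3 lie close to the dashed line.

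Whether miR-21-5p was lower in the MDA-MB-231 library depended on the scaling. TMM factors raised the log2 ratio of each miRNA counted in both libraries by about 0.73. The median of ratios raised it by about 0.67, and a total that leaves out the 10 top miRNAs of either library by about 0.73. The ratio of miR-21-5p was then 1.04 (0.897 to 1.21), 1.01 (0.866 to 1.17) and 1.05 (0.901 to 1.22), with an equal level inside each interval. The corresponding ratios of miR-221-3p were 0.950, 0.917 and 0.954, and those of miR-222-3p were 0.907, 0.875 and 0.911. Their intervals reached up to 2.35, 2.27 and 2.36 for miR-221-3p and 2.86, 2.76 and 2.87 for miR-222-3p. A 2-fold increase of either thus lay inside its interval under these 3 scalings. The median of ratios gave both libraries the same scale, so its ratios are those of the raw counts, with no correction for depth. Relative to miR-16-5p, a miRNA often taken as a reference in vesicles and measured here at 31 and 70 counts, the ratio of miR-21-5p was 0.445 (0.275 to 0.709) and that of miR-221-3p 0.406 (0.146 to 1.14). Under none of these 5 scalings did any of the 3 have an interval wholly above 1. The summed share of 7 serum and blood miRNAs, mostly miR-451a, differed between the libraries, being 12.2% in the MCF-10A library and 20.2% in the MDA-MB-231 library. Of these 7, miR-486-5p had 29 and 96 counts, miR-144-3p 6 and 13, miR-122-5p 10 and 17 and miR-142-3p 3 and 3. miR-150-5p, a marker of mature lymphocytes, had 0 counts in both and miR-223-3p, a myeloid marker, had 0 and 3 counts. The part of these miRNAs in the result was not tested.

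**Figure D4:**
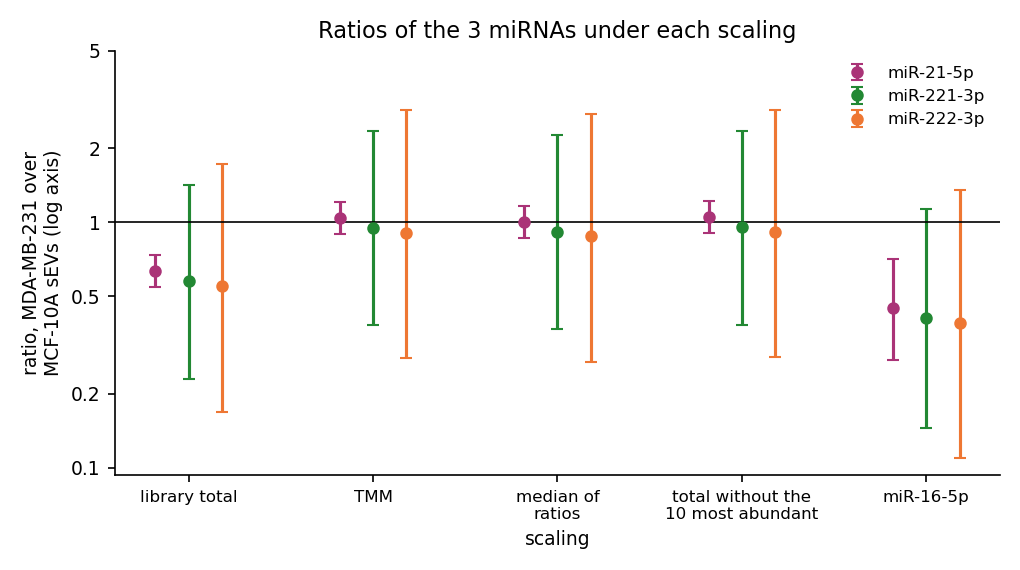
Ratio of MDA-MB-231 over MCF-10A sEVs (log axis) for miR-21-5p, miR-221-3p and miR-222-3p under 5 scalings, with exact 95% intervals. Ratios lie from 0.548 to 0.630 under the library total, from 0.875 to 1.05 under the 3 scalings that lean on the bulk of miRNAs, and from 0.388 to 0.445 relative to miR-16-5p. Each scaling multiplies all 3 ratios by the same factor, so their order cannot change.

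The arms of each hairpin showed where miR-221 and miR-222 differed from miR-21. Of the counts of the miR-21 hairpin, 99.7% in the MCF-10A library (354 of 355, exact 95% lower bound 98.4%) and 99.4% in the MDA-MB-231 library (356 of 358, 98.0 to 99.9%) were miR-21-5p. miR-21-3p was left with 1 and 2 counts. For miR-221 the 3p arm, the guide strand, took 70.6% in the MCF-10A library (12 of 17, 44.0 to 89.7%) and 84.6% in the MDA-MB-231 library (11 of 13, 54.6 to 98.1%). For miR-222 the 3p arm took 47.1% in the MCF-10A library (8 of 17, 23.0 to 72.2%) and 58.3% in the MDA-MB-231 library (7 of 12, 27.7 to 84.8%). The intervals of miR-21 did not overlap those of either miR-221 or miR-222 in the MCF-10A library, nor that of miR-222 in the MDA-MB-231 library. For miR-221 and miR-222 the 2 libraries overlapped widely.
Most hairpins of these libraries used mainly 1 arm. Of 47 hairpins with both arms listed and at least 10 counts in the MCF-10A library, 41 had at least 90% of their counts on the more abundant arm and 4 had less than 75%. miR-221 and miR-222 were among these 4, and miR-222 was the most even of all 47. In the MDA-MB-231 library 42 of 48 hairpins had at least 90% on 1 arm and 3 had less than 75%, miR-222 among them, with miR-423 (57.9%) the only more even hairpin. All of the hairpins under 75% had few counts. Among hairpins with 10 to 20 counts, 4 of 22 in the MCF-10A library and 3 of 27 in the MDA-MB-231 library were under 75%, while 16 and 22 had at least 90% on 1 arm. Hairpins were paired by name, and how reads matching several miRNAs were counted is not given in the sources used here.

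**Figure D5:**
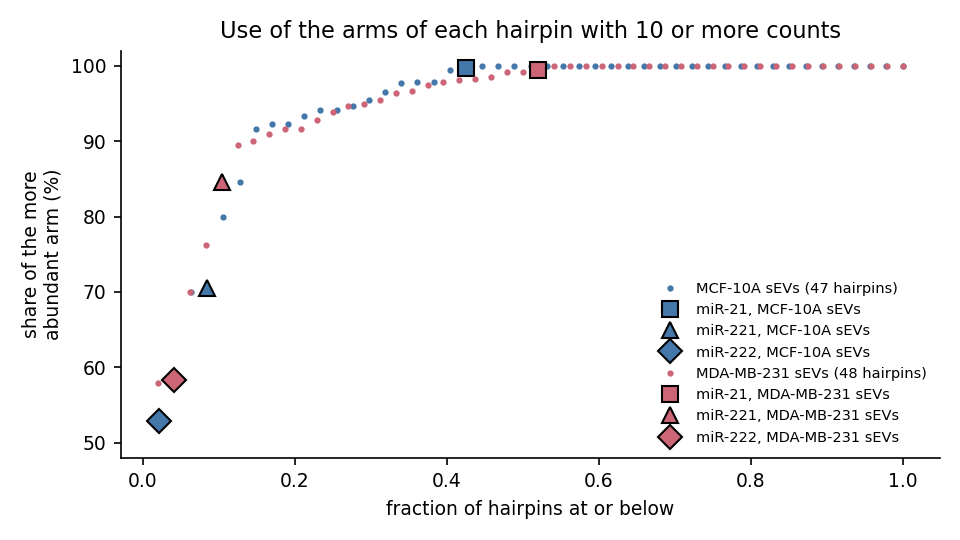
Share of a hairpin's counts on its more abundant arm (percent), for hairpins with at least 10 counts in rising order, against the fraction of hairpins at or below, in the MCF-10A library (blue) and MDA-MB-231 sEVs (red). miR-21 (squares) lies above 99% in both, whereas miR-222 (diamonds) lies at 52.9% and 58.3% and miR-221 (triangles) at 70.6% and 84.6%.

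miRNAs with a ratio like that of the members were looked for among the 109. Over 2 libraries likeness is no more than a near-equal log2 ratio. Nearest to miR-21-5p were miR-186-5p (11 counts in each library), miR-17-5p (20 in each) and miR-192-5p (21 in each), all at −0.67. Nearest to miR-221-3p were miR-1265 (11 and 10 counts, −0.81), miR-7-5p (43 and 41 counts, −0.74) and miR-99a-5p (54 and 52 counts, −0.73). For miR-222-3p they were miR-4516 (33 and 28 counts, −0.91), miR-1265 and miR-221-3p itself.

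Other miRNAs described as promoting breast cancer were compared as a list of 20, of which 19 were analysed and 11 had at least 10 counts in 1 library. Of these 11, 5 (45.5%) were at least 2-fold lower in the MDA-MB-231 library and 0 at least 2-fold higher, against 41.3% and 15.6% of all miRNAs. Their median log2 ratio was −0.96, that of all 109 miRNAs −0.72. The 5 lower were miR-27a-3p (46 and 9 counts, ratio of shares 0.123, 0.0528 to 0.254), miR-183-5p (65 and 13 counts), miR-96-5p (38 and 7 counts), miR-23a-3p (10 and 3 counts) and miR-181a-5p (28 and 17 counts, 0.380, 0.195 to 0.720). Under TMM scaling 4 of the 11 were at least 2-fold lower and 0 higher, against 25.7% and 22.0% of all 109 miRNAs. An equal share lay inside the intervals of miR-103a-3p (17 and 26 counts, 0.958, 0.501 to 1.88) and of miR-10b-5p, known for driving invasion (18 and 24 counts, 0.836, 0.435 to 1.63). miR-9-5p, which lowers E-cadherin, had 44 and 36 counts (0.513, 0.321 to 0.815), close to the members. miR-182-5p had a share 1.09-fold higher (1.06 to 1.13), and miR-17-5p and miR-20a-5p had intervals that included an equal share. The other 8 analysed had fewer than 10 counts in both libraries. Among them miR-155-5p, another oncomir known in breast cancer, had 1 and 0 counts and miR-210-3p, a hypoxia-induced miRNA, had 3 and 0 counts, whereas miR-107 had 1 and 5 counts and miR-19a-3p had 0 and 3 counts.

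A list of 21 miRNAs described as suppressors of breast cancer served as the counterpart, with 10 members at or above 10 counts in 1 library. Of these 10, 8 (80.0%) were at least 2-fold lower in the MDA-MB-231 library and 1 at least 2-fold higher, again against 41.3% and 15.6%. The median log2 ratio was −1.87, and under TMM scaling it was −1.15. Under that scaling 5 of the 10 were 2-fold or more lower, and all 109 miRNAs had a median of 0.0052 with 25.7% lower. The lower ones included miR-29b-3p (58 and 6 counts, ratio of shares 0.0648, 0.0229 to 0.150), miR-146a-5p (65 and 15 counts, 0.145, 0.0766 to 0.256), let-7b-5p (133 and 49 counts, 0.231, 0.163 to 0.323) and miR-200c-3p (19 and 3 counts, 0.0989, 0.0188 to 0.336). The higher one was miR-15a-5p (1 and 11 counts, 6.89, 1.00 to 297). miR-126-3p, an endothelial miRNA, had 14 and 22 counts (0.985, 0.482 to 2.08). miR-21-5p, at a log2 ratio of −0.67, thus lay above the medians of both lists. The lists were chosen by reputation with earlier results of these data known, and no test compares them with the members.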

How the data were processed

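Small RNA sequencing of sEVs from MCF-10A and MDA-MB-231 cells (1 library each, grouped by the labels) was analysed from a single table. The authors deposited raw counts per mature miRNA and the same counts as CPM, which matched each count divided by its library total. FastQC, cutadapt, Bowtie and edgeR and the build hg38 are named in the submitters' processing notes. The paper gives a Bowtie version for RNA-seq analysis without naming these small RNA libraries, whose settings, miRBase release and multi-mapping rules are not given in the sources used here. For sEV sequencing the paper refers to earlier data, and whether these are the same libraries is not stated.

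Per the labels, RNA was treated to remove modifications that block ligation or reverse transcription, and inserts of small RNA size were selected. No molecular identifiers are described, so copies made by PCR cannot be told from separate molecules, and intervals and limits cover counting error only. With 1 library per cell line no test was run. Shares carry 95% Wilson intervals, ratios between libraries exact conditional binomial intervals, ratios within a library exact binomial intervals and changes of such ratios exact conditional odds ratio intervals. A count of 0 allows 3 counts. Log2 ratios used CPM with a pseudocount of 1, at least 10 counts in 1 library and a 2-fold threshold. Other scalings, pseudocounts (0.1 and 10), count minimums (1 and 50), folds (1.5 and 4) and merged arms were tried. TMM factors came from edgeR 4.0.16 (R 4.3.3), the rest from Python 3.11.15 with scipy 1.17.1, numpy 2.4.6 and pandas 2.3.3. The interval script was tested on simulated data.

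Members and lists were chosen with earlier results of these data known. miRNAs named are the members, their opposite arms, miRNAs with the same seed, list members with at least 10 counts in 1 library, miR-16-5p, the 3 miRNAs nearest in log2 ratio and neighbours in rank. miR-182-5p and miR-451a as the most abundant, miR-423 and the list members named below 10 counts were chosen after their values were seen. Sequences came from RefSeq (GRCh38.p14; 1175 of 1315 miRNAs matched by name) and annotation from GENCODE v29 (GRCh38).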

Additional observations from a re-analysis of the deposited data

How the results depend on the processing

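No paired analysis was possible because each cell line had a single library. Of 56 alternatives 35 left a value within its main interval, within 1.5 times a count or within 0.1 of a median, and 21 moved it. The ratio of miR-21-5p moved from 0.630 to 1.04 (TMM), 1.01 (median of ratios), 1.05 (total without the 10 most abundant) and 0.445 (miR-16-5p). Ratios of miR-221-3p and miR-222-3p and their proportions stayed within their wide intervals under every alternative run, but with both arms added the interval of miR-222 (0.442, 0.193 to 0.983) no longer included an equal share. With arms added, miR-222 ranked 60 in MCF-10A sEVs instead of 95. The number higher by 2-fold or more in the cancer library was 17, and 24 under all 3 other scalings, 242 with a minimum of 1 count and 5 with 50 counts. The number lower was 45, and 28 under all 3 other scalings (TMM, median of ratios, reduced total), 288 with a minimum of 1 count, 12 with 50 counts and 26 at 4-fold. The oncomir list median of −0.96 became −0.24 (TMM), −0.29 (median of ratios), −0.23 (total without the 10 most abundant) and −1.39 (no minimum). The suppressor list median of −1.87 became −1.15, −1.20, −1.14 and −1.39. Shifts under other scalings follow from the factors, which add a near-constant to each log2 ratio of a miRNA counted in both libraries. Among the 3 members, depth limits miR-221-3p and miR-222-3p more than miR-21-5p, and their opposite arms have wider intervals still.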
